A study of Mus musculus with 11 samples.

Results

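The let-7 family of microRNAs (miRNAs, short RNAs that repress messenger RNAs) was followed through the livers of telomerase-knockout mice with and without the tumour suppressor p53. The members were the 5p arms of let-7a, b, c, d, f, g and i and of miR-98, which shares their seed. They are 8 of the 1281 mature miRNA names in the count table, taken by name, with earlier results of these data known. let-7e was left out of the set because it belongs to a separate gene cluster. Small RNA was sequenced from total RNA of 50 mg of liver. All mice were untreated telomerase knockouts of strain background C57/B6 with short telomeres, written G4 in the labels, and they differed in p53. The G4 p53+/+ group had intact p53 (5 libraries, numbered 1 to 5) and the G4 p53-/- group lacked it (6 libraries, numbered 6, 7, 8, 10, 11 and 12). The sources used here do not give the telomerase gene knocked out, the age or the sex. No mice with full-length telomeres were analysed here. The labels do not tie each library to an animal of its own, so the p-values reflect only how far these samples spread, which may be technical.

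A miRNA hairpin is cut by Drosha and Dicer into a 5p and a 3p arm, and in let-7 hairpins the 5p arm is the one mainly loaded into Argonaute. Bases 2 to 8 of the loaded arm, the seed, pair with messenger RNAs, so arms with the same seed are thought to share most targets, among them Hmga2, Lin28b, Myc and Ras genes. The Lin28 proteins block let-7 maturation in fetal cells, and let-7 is abundant in adult liver, where Lin28 proteins are low. These statements are background and were not measured here.

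The 8 mature sequences are shown because they explain both why the arms form a family and why their reads are hard to separate. They come from RefSeq on GRCm38.p6 (all 8 members matched), are written 5′ to 3′, and carry the seed in capitals. The prefix mmu stands for mouse and is left out elsewhere.
mmu-let-7a-5p: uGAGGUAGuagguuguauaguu
mmu-let-7b-5p: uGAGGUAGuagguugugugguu
mmu-let-7c-5p: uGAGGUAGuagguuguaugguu
mmu-let-7d-5p: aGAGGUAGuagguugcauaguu
mmu-let-7f-5p: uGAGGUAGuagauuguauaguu
mmu-let-7g-5p: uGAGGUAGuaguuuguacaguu
mmu-let-7i-5p: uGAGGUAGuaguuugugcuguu
mmu-miR-98-5p: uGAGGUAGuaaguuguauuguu
All 8 arms are 22 bases long and have the seed GAGGUAG. Of 1679 mature names in the sequence table, 11 carry this seed, and the other 3 are let-7e-5p, let-7k and miR-1961. With positions counted from 1 at the 5′ end and let-7a-5p as the reference, let-7c-5p differs by A19G alone and let-7f-5p by G12A alone. let-7b-5p differs by A17G and A19G, let-7d-5p by U1A and U16C, let-7g-5p by G12U and U18C, and miR-98-5p by G11A and A19U. let-7i-5p is the farthest from let-7a-5p, with G12U, A17G, U18C and A19U. Over the 28 pairs of members the number of mismatches ran from 1 to 6, and 3 pairs were 1 mismatch apart. The sources used here do not state how many mismatches the authors' counting allowed, so reads with an error or an edited end may have moved between neighbours such as let-7a-5p and let-7c-5p.

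The 8 arms come from 11 hairpins on 6 chromosomes (13, 9, 16, 15, 10 and X). Mirlet7a-1 (chr13:48538179-48538272), Mirlet7f-1 (chr13:48537829-48537917) and Mirlet7d (chr13:48536012-48536114) lie in a row on the minus strand, 261 and 1714 bases apart, within exons of the long noncoding RNA 6720427I07Rik in GENCODE M21. Mirlet7c-2 (chr15:85706603-85706697) and Mirlet7b (chr15:85707319-85707403) lie 621 bases apart on the plus strand, in exons of the noncoding transcript Lncppara. Mirlet7f-2 (chrX:151912346-151912428) and Mir98 (chrX:151913214-151913321) lie 785 bases apart on the plus strand, in an intron of Huwe1, which encodes a ubiquitin ligase. Mirlet7g (chr9:106178840-106178927) sits in an intron of Wdr82, Mirlet7c-1 (chr16:77599657-77599750) in an intron of the miRNA host gene Mir99ahg, and Mirlet7a-2 (chr9:41536716-41536811) in introns of 3110039I08Rik and Gm49317. Mirlet7i (chr10:122985640-122985724) overlaps an exon of D630033A02Rik, annotated as a transcribed pseudogene. A read of let-7a-5p, let-7c-5p or let-7f-5p can come from either of its hairpins, so these rows do not tell the loci apart. Their copies under different hairpins differed by at most 0.0984% in a library, and the higher copy was used.

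Total counts per library ran from 1905609 to 6682492, with each miRNA counted once. The members were among the best measured miRNAs of the series: the lowest count of a member in any library was 204, for miR-98-5p in p53-/- library 11. Levels are given as normalised CPM: counts scaled to the library total and then by a TMM factor, here 0.832 to 1.24, that offsets differences in make-up between libraries. The genotype labels were checked on miR-34a-5p, whose gene p53 switches on, which lay at 42.4 to 120.0 normalised CPM in p53+/+ and 3.90 to 12.4 in p53-/- libraries.

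let-7g-5p was the most abundant member in all 11 libraries, at 33870.0 ± 5007 normalised CPM (SD over all 11 libraries), and was at rank 3 among all miRNAs. let-7f-5p followed at 21997 ± 4222, let-7c-5p at 15286 ± 1777 and let-7a-5p at 13873 ± 2735. let-7i-5p stood at 9089 ± 1622, let-7b-5p at 6993 ± 892 and let-7d-5p at 2693 ± 818. miR-98-5p was far below the rest at 114 ± 21.3 normalised CPM. All 8 arms have the same length, so no difference in length enters the comparison of their levels. Adapter ligation can favour some ends over others and was not measured, so the order is one of reads. The order was firm at its ends: let-7g-5p exceeded let-7f-5p, let-7f-5p exceeded let-7c-5p, let-7b-5p exceeded let-7d-5p and let-7d-5p exceeded miR-98-5p in 11 of 11 libraries each. Neighbours in the middle changed places. let-7c-5p was above let-7a-5p in 9 of 11 libraries, with ratios down to 0.877, let-7a-5p above let-7i-5p in 10 of 11, and let-7i-5p above let-7b-5p in 9 of 11.

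**Figure D1:**
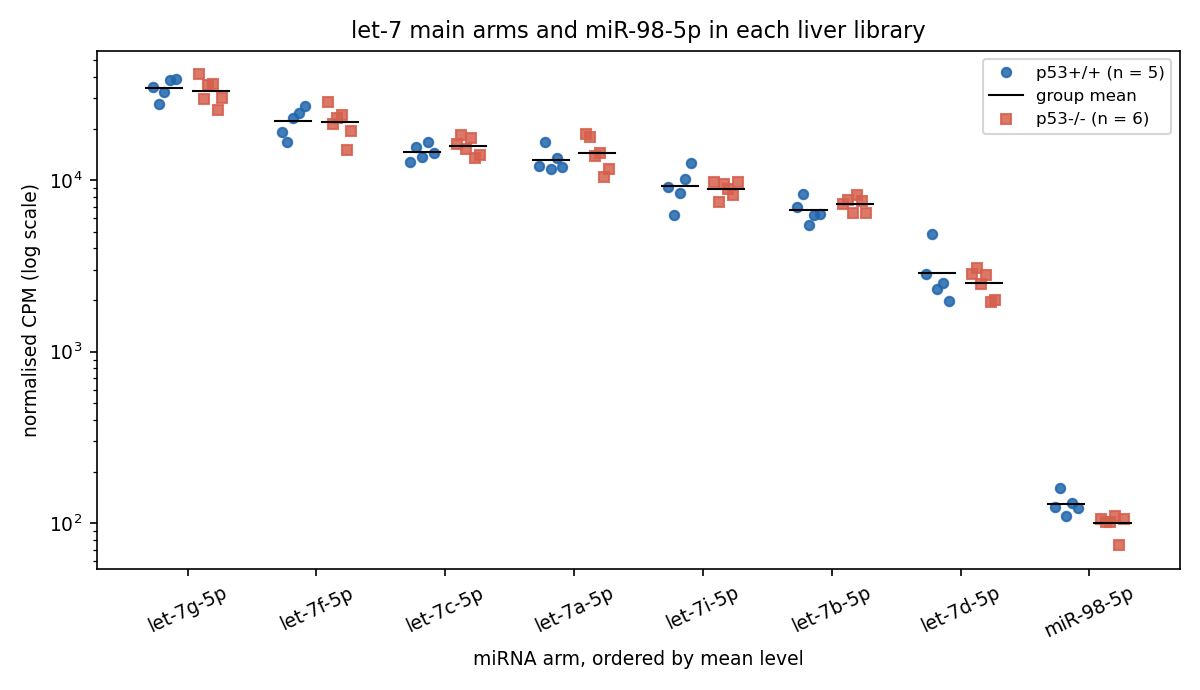
Normalised CPM (log axis) of the 8 arms, ordered by mean level, in each p53+/+ library (blue circles) and p53-/- library (red squares), with black bars for group means. The points of the genotypes overlap for every arm, and miR-98-5p, at about 100 CPM, lies more than an order of magnitude below the other arms.

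The comparison of genotypes asked whether any member depends on p53 in liver with short telomeres. None of the 8 arms passed the test: with edgeR's quasi-likelihood fit and a threshold of 0.05 on the adjusted p, 0 of 8 members were called, against 0.258% of all 388 miRNAs tested (1 miRNA, miR-34a-5p). limma-voom called 0 of 8 as well, against 1 of all 388 miRNAs tested. DESeq2 called 0 of 8, against 1.8% of all tested miRNAs. At an unadjusted p under 0.05 there was 1 of 8, miR-98-5p, against 17.3% of all tested. That was 1 lower in p53-/- and 0 higher, against 9.02% and 8.25%. Normalised CPM of the genotypes overlapped for all 8 members, while they did not overlap for 2.32% of the miRNAs tested. The log2 fold changes, p53-/- minus p53+/+, were below 0 for 5 members and above 0 for 3, where 51% of all tested were below 0, and their median was -0.04, beside -0.01 over all tested miRNAs. In bulk liver, fewer cells of a type and less RNA per cell cannot be told apart.

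let-7g-5p, the leading arm, measured 34825, 27918, 32746, 38385 and 39116 normalised CPM in p53+/+ libraries 1 to 5. In p53-/- libraries its lowest, median and highest values were 25711, 33043 and 41445. The p53+/+ values lay inside the p53-/- range. On the log2 scale the genotypes differed by -0.06 (SE 0.15, edgeR adjusted p = 0.880), with a 95% interval from -0.38 to 0.27.

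let-7f-5p measured 19007, 16654, 23134, 24714 and 27078 normalised CPM in p53+/+ libraries 1 to 5, against 15002, 22159 and 28683 as the lowest, median and highest p53-/- values. Here too the p53+/+ values fell within the p53-/- range, with a log2 fold change of -0.01 (SE 0.18, 95% interval 0.757-fold to 1.29-fold, adjusted p = 0.986 in edgeR). let-7i-5p measured 9112, 6232, 8445, 10097 and 12527 in p53+/+ libraries and 7411, 9193 and 9806 as the lowest, median and highest in p53-/- libraries. For let-7i-5p the spread was wider with p53, since libraries 2 and 5 held the lowest and the highest value of all 11. Its log2 fold change was -0.06 (SE 0.17, 95% interval 0.746-fold to 1.24-fold, adjusted p = 0.904 in edgeR). The sign of these near-zero values rested on single libraries: let-7f-5p was at 0.06 without p53+/+ library 5 and at 0.11 without p53-/- library 11, let-7i-5p at 0.05 without p53+/+ library 5, and let-7g-5p at 0.04 without p53-/- library 11.

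let-7a-5p, let-7b-5p and let-7c-5p had slightly higher means without p53, and none passed the test. let-7a-5p measured 12145, 16770.0, 11691, 13386 and 11961 normalised CPM in p53+/+ libraries 1 to 5, and 10387, 14196 and 18543 as the lowest, median and highest in p53-/- libraries. Library 2 was the high one among p53+/+ samples, and all 5 p53+/+ values lay within the p53-/- range. The log2 fold change was 0.13 (SE 0.18, 95% interval 0.843-fold to 1.42-fold, adjusted p = 0.735 in edgeR). With the p53-/- libraries 10, 11 and 12 alone, whose HA numbers in the labels are above 500 (their meaning is not given), it was -0.14.

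let-7c-5p measured 12772, 15562, 13669, 16692 and 14500.3 in p53+/+ libraries, and 13497, 15777 and 18337 as the lowest, median and highest in p53-/- libraries. p53+/+ library 1 lay below the p53-/- range, and the other 4 lay inside it. The log2 fold change was 0.11 (SE 0.13, 95% interval 0.888-fold to 1.32-fold, adjusted p = 0.688 in edgeR). let-7b-5p, which shares the locus of let-7c-2, measured 6995, 8309, 5480.5, 6279 and 6316 in p53+/+ libraries and 6401, 7425 and 8222 in p53-/- libraries. All 6 p53-/- values of let-7b-5p were above the p53+/+ median, but p53+/+ library 1 lay inside their range and library 2 above it. Its log2 fold change was 0.12 (SE 0.14, 95% interval 0.883-fold to 1.34-fold, adjusted p = 0.684 in edgeR).

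let-7d-5p, the one member that starts with A, varied most between libraries, with a CV of 30.4% over all 11. Within p53-/- libraries its CV was 18.6%, below those of let-7a-5p (22.5%) and let-7f-5p (21.0%). It measured 2822, 4862, 2305, 2501 and 1976 normalised CPM in p53+/+ libraries 1 to 5, and 1941, 2645 and 3084 as the lowest, median and highest in p53-/- libraries. Library 2 stood well above every other sample of either genotype. The log2 fold change was -0.20 (SE 0.23, 95% interval 0.623-fold to 1.22-fold, adjusted p = 0.684 in edgeR), and without p53+/+ library 2 it was 0.05.

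miR-98-5p was the member with the smallest p, and it did not pass the test. It measured 124, 159, 110.1, 132 and 123 normalised CPM in p53+/+ libraries 1 to 5, from counts of 259, 353, 657, 782 and 518. In p53-/- libraries its lowest, median and highest values were 74.5, 104 and 110.6, from counts of 204 to 763. All 6 p53-/- values were below the p53+/+ median, but the highest of them, in library 10, was just above the lowest p53+/+ value, in library 3. The log2 fold change was -0.37 (SE 0.16, 95% interval 0.615-fold to 0.978-fold), with an unadjusted p of 0.0343 and an adjusted p of 0.226 in edgeR. With each library left out in turn the value ran from -0.47 to -0.27, and without both p53+/+ libraries 1 and 2 it was -0.23. Lowest of all 11 was p53-/- library 11, which also had the highest TMM factor, 1.24, and the smallest total of its genotype, 2202415 counts. The part of these library properties in the difference was not tested.

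**Figure D2:**
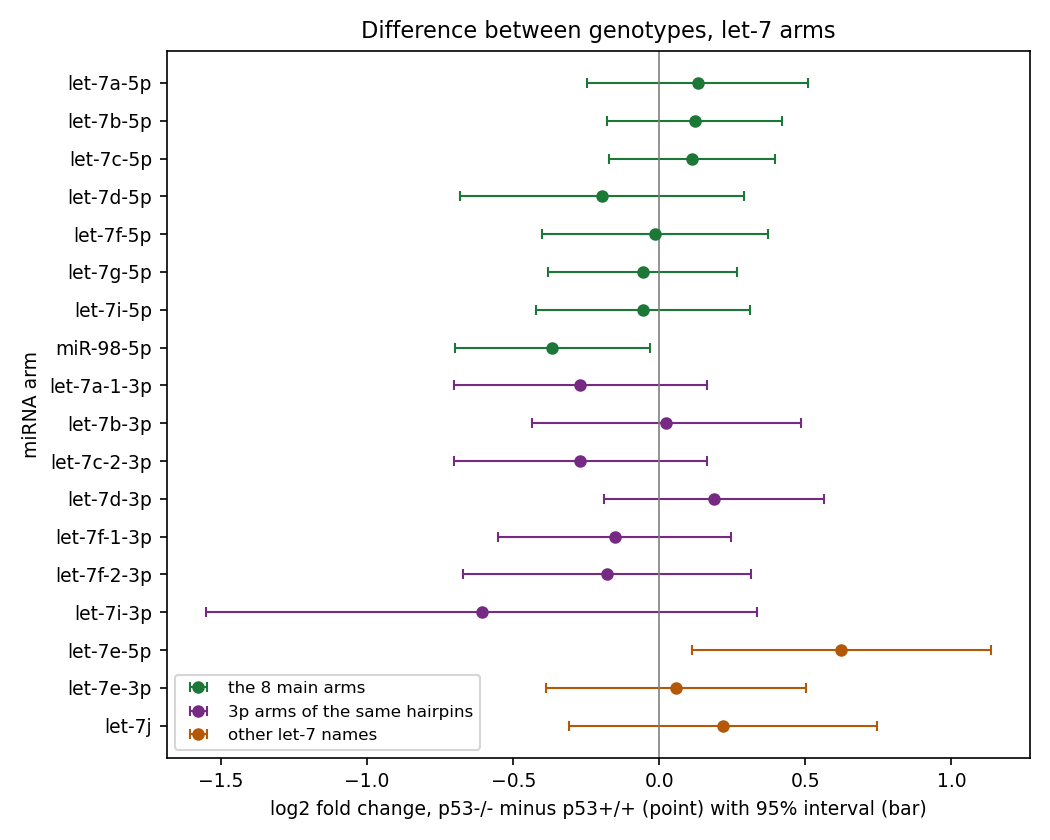
Log2 fold changes between genotypes (p53-/- minus p53+/+, points) with 95% intervals (bars) for the 8 main arms (green), the tested 3p arms of the same hairpins (purple) and other let-7 names (orange). Among the main arms only the interval of miR-98-5p lies off 0, and none of the arms plotted passed the adjusted p of 0.05 in edgeR.

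Added together, the 8 arms made up nearly the same part of every library. They held 10.4%, 11.2%, 10.0%, 10.3% and 10.7% of all counts in p53+/+ libraries 1 to 5, and 9.67%, 10.1% and 10.6% as the lowest, median and highest in p53-/- libraries. The 95% Wilson intervals of these shares were at most 0.0448 percentage points to either side and cover counting error only. On average this was 10.5 ± 0.449% with p53 (SD, n = 5) and 10.2 ± 0.322% without it (SD, n = 6), and the groups overlapped. The difference of -0.39 percentage points was -0.22 without p53+/+ library 2. The share depended on its denominator, because miR-122-5p, the dominant miRNA of hepatocytes, took 52.4% to 64.0% of all counts. Out of the counts other than miR-122-5p, the 8 arms held 23.2 ± 0.976% (SD, n = 5) with p53 and 24.4 ± 2.84% (SD, n = 6) without it, so the lower mean changed genotype. On that scale p53-/- library 6 was highest at 28.9%, and it also had the highest miR-122-5p share.

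**Figure D3:**
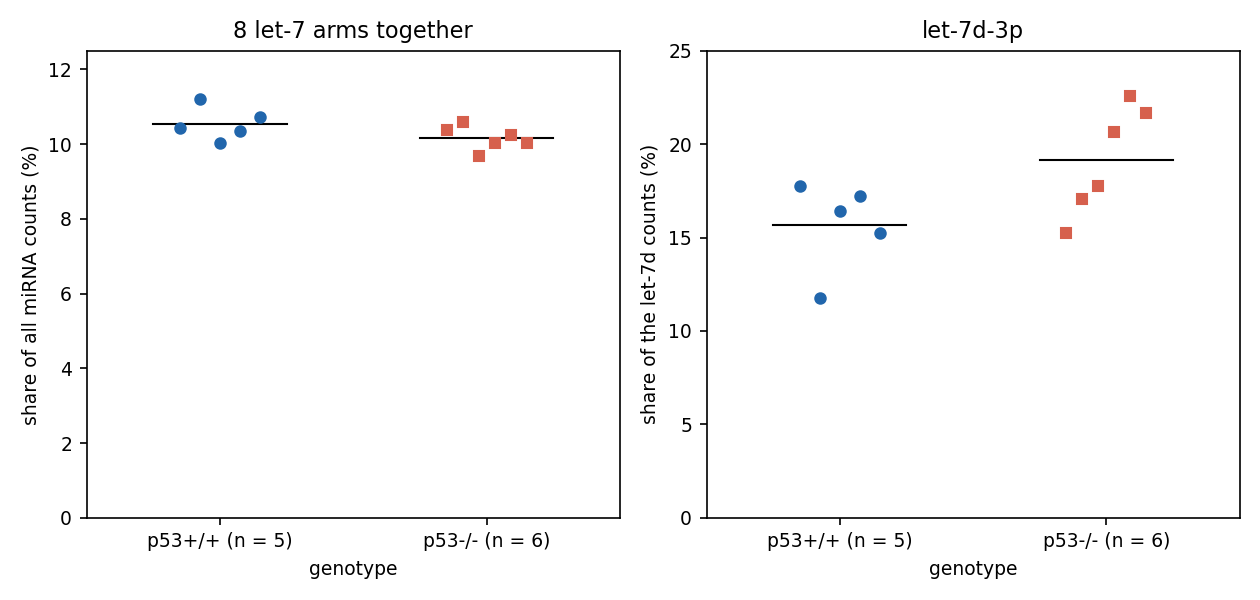
Left, the 8 arms together as a share of all miRNA counts (%), and right, let-7d-3p as a share of the counts of both let-7d arms (%), by genotype, with 1 point per library (blue circles p53+/+, red squares p53-/-), black bars for means, and on the left 95% Wilson intervals that are smaller than the points. All libraries lie between 9.67% and 11.2% on the left, while on the right the 3 highest points, 20.7% to 22.6%, are p53-/- libraries.

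The arms shared out this total differently from library to library. let-7g-5p held 28.3% to 35.6% of the members' counts, let-7f-5p 17.3% to 23.8%, let-7c-5p 12.8% to 17.4% and let-7a-5p 10.5% to 17.4%. let-7i-5p held 6.46% to 11.0%, let-7b-5p 5.56% to 9.20%, let-7d-5p 1.74% to 5.04% and miR-98-5p 0.0851% to 0.165%. let-7a, b, c and d tended to be high in the same libraries, and so did let-7f, g and i. These sets were chosen after their values were seen, so they were not tested, and as shares of a fixed sum they must trade off. In sequence, let-7a, b, c and d have GG at positions 11 and 12, let-7f has GA, let-7g and let-7i have GU, and miR-98 has AG. Other differences do not follow the sets: A17G, for example, is found in let-7b and let-7i. No link between sequence and the sets was tested.

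The ratio of let-7a, b, c and d to let-7f, g and i was 0.552, 0.896, 0.515, 0.531 and 0.441 in p53+/+ libraries 1 to 5. In p53-/- libraries its lowest, median and highest values were 0.558, 0.596 and 0.799. The highest ratios were those of p53+/+ library 2 and p53-/- library 7, so they occurred in both genotypes. The ranges overlapped through p53+/+ library 2 alone, since the other p53+/+ libraries lay below the lowest p53-/- value. The difference in ratio was not tested. Of the 3 libraries with the smallest totals, p53+/+ 2 (1905609 counts) had a ratio of 0.896, p53+/+ 1 (1965468) 0.552 and p53-/- 11 (2202415) 0.683, while p53-/- 7 had 6664274 counts. Over the 11 libraries the ratio and the total counts had an r of -0.38, and the part of depth was not tested. On log2 normalised CPM over the 11 libraries, Pearson's r was above 0 in 9 of 9 pairs within a set, from 0.42 for let-7c-5p with let-7d-5p to 0.92 for let-7f-5p with let-7g-5p. Between the sets it was below 0 in 8 of 12 pairs, from -0.72 for let-7d-5p with let-7i-5p to 0.41 for let-7c-5p with let-7f-5p. Without p53+/+ libraries 1 and 2 it was still above 0 in 9 of 9 pairs within a set, and below 0 in 6 of 12 pairs between sets. These values are descriptions: all arms of a library share its preparation and its TMM factor.

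**Figure D4:**
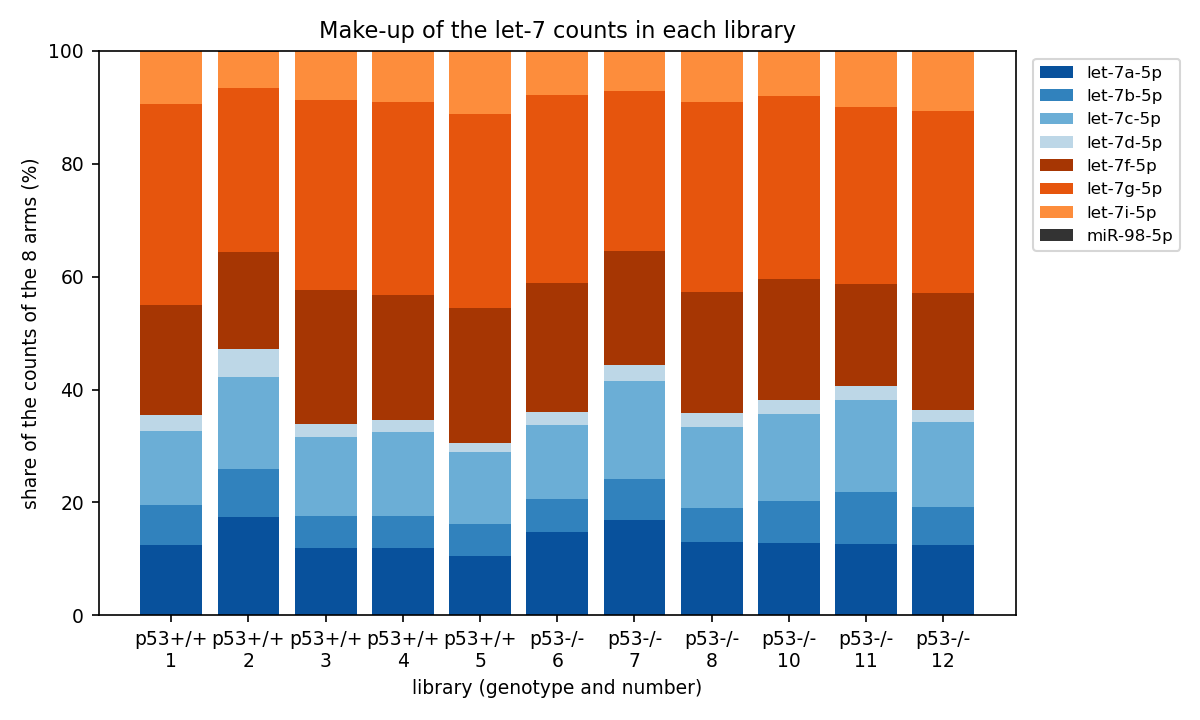
Share (%) of each arm in the summed counts of the 8 arms, stacked for each of the 11 libraries, with let-7a, b, c and d in blues, let-7f, g and i in oranges, and miR-98-5p too small to see. The blue part is tallest in p53+/+ library 2 at 47.2% and p53-/- library 7 at 44.4%, and shortest in p53+/+ library 5 at 30.6%.

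Arms that share a hairpin cluster were compared in the same way. let-7a-5p and let-7f-5p both have a hairpin in the chromosome 13 cluster, differ by 1 base, and had an r of 0.33, while let-7a-5p and let-7d-5p of the same cluster had 0.74 and let-7d-5p and let-7f-5p had -0.16. miR-98-5p and let-7f-5p, which share the Huwe1 intron, had an r of 0.19. let-7b-5p and let-7c-5p, neighbours on chromosome 15, had 0.43. Without p53+/+ libraries 1 and 2 these values were 0.56 for let-7a-5p with let-7f-5p, 0.91 for let-7a-5p with let-7d-5p and 0.45 for let-7d-5p with let-7f-5p. They were 0.81 for miR-98-5p with let-7f-5p and 0.56 for let-7b-5p with let-7c-5p. The values thus depended on those 2 libraries, which were left out together and not singly. Since let-7a-5p, let-7c-5p and let-7f-5p each add up hairpins of different chromosomes, these values do not follow single transcripts.

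The hairpins also differed in how much of the other arm was seen. The hairpins of let-7d and let-7g are shown for this contrast, 5′ to 3′ with both mature arms in capitals, the 5p arm first.
Mirlet7d: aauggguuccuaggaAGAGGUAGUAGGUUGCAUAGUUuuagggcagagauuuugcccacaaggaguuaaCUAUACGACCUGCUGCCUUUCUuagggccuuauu
Mirlet7g: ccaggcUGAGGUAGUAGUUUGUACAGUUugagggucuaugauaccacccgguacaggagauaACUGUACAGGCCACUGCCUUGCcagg
let-7d-3p made up 17.7%, 11.8%, 16.4%, 17.2% and 15.3% of the let-7d counts in p53+/+ libraries 1 to 5, and 15.2%, 17.1%, 17.8%, 20.7%, 22.6% and 21.7% in p53-/- libraries 6, 7, 8, 10, 11 and 12. Within p53-/-, libraries 6, 7 and 8 lay in or next to the p53+/+ range, and libraries 10, 11 and 12 above it. HA numbers are above 500 in those 3 and in all 5 p53+/+ libraries, and below 500 in libraries 6, 7 and 8. This split of the p53-/- libraries was seen in these values and was not tested. The Wilson intervals of these shares were at most 0.989 percentage points to either side. The averages were 15.7 ± 2.37% with p53 (SD, n = 5) and 19.2 ± 2.88% without (SD, n = 6), the ranges overlapped, and the difference was not tested because it was noticed in these values. In the fit over all miRNAs, let-7d-3p stood at 0.19 on the log2 scale (SE 0.17, adjusted p = 0.609 in edgeR). That was opposite in sign to let-7d-5p, whose sign rested on p53+/+ library 2 (0.05 without it). Neither arm passed. let-7g-3p, by contrast, had 45 counts over all 11 libraries beside 1779111 of let-7g-5p.

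As a list, the other arms of the members' hairpins gave 0 calls, against 0.258% of all miRNAs tested. Of 11 such arms, 7 passed the filter on low counts. Their log2 fold changes were below 0 for 5 and above 0 for 2, where 51% of all tested were below 0, and the median was -0.18. let-7a-1-3p and let-7c-2-3p, which are the same measurement, both enter these counts and the median. The 4 most abundant were let-7d-3p, let-7b-3p (0.02, adjusted p = 0.979 in edgeR), and let-7a-1-3p and let-7c-2-3p (-0.27, adjusted p = 0.531 in edgeR). The last pair is a single measurement listed under separate names, since both arms read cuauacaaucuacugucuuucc and had equal counts in 11 of 11 libraries. let-7a-2-3p, let-7c-1-3p, let-7g-3p and miR-98-3p were too scarce to test, with at most 12 counts in a library.

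Of 6 other names kept as relatives, 3 passed the filter on low counts. let-7e-5p lay above miR-98-5p and below the other 7 members, at 499 to 1534 normalised CPM over all libraries. let-7e-5p, from the miR-99b/let-7e/miR-125a cluster, equalled 0.546 ± 0.0706% of the members' counts with p53 (SD, n = 5) and 0.808 ± 0.220% without it (SD, n = 6), and reached 1.23% in p53-/- library 6. Its log2 fold change was 0.62 (SE 0.24, adjusted p = 0.190 in edgeR), above that of each of the 8 members, and this contrast was not tested. let-7j, which carries the seed GAGGUAU in place of the family's, was at 0.22, and let-7e-3p at 0.06, and neither passed. let-7k had at most 2 counts in a library, and miR-1961 had none in any library. miR-202-3p, a listed relative with neither the name nor this seed, also had none, which allows up to 1.43 normalised CPM in p53+/+ library 1 and less in the others.

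miRNAs that lie beside let-7c-1 or in the related miR-99/miR-125 clusters were followed as a further list. Of 11 arms 10 were tested, 4 below 0 and 6 above, with a median of 0.04, and 0 passed in edgeR. At an unadjusted p under 0.05 there were 4 of 10, against 17.3% of all tested: miR-99b-5p, miR-99b-3p (0.75) and miR-125a-3p (0.74), of the let-7e cluster, were higher without p53, and miR-99a-3p (-0.77) was lower. Normalised CPM of the genotypes did not overlap for miR-99b-3p and miR-99a-3p, against 2.32% of all tested, and edgeR's adjusted p was 0.136 and 0.174. The 3p arms were named after their values were seen. The most abundant were miR-99a-5p (-0.10), next to let-7c-1 in Mir99ahg, miR-125b-5p (-0.05), miR-99b-5p (0.51) and miR-100-5p (0.00145). Their edgeR adjusted p-values were 0.866, 0.909, 0.190 and 0.996. miR-99a-5p stood at 11053 ± 3647 normalised CPM with p53 (SD, n = 5) and 10341 ± 2328 without it (SD, n = 6).

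The miRNAs whose levels followed the summed let-7 level most closely, among 236 names outside the family with a mean of at least 10 normalised CPM, were miR-122-5p (Pearson's r = 0.92 over 11 libraries), miR-30b-5p (0.78), miR-148a-3p (0.72) and miR-592-5p (0.70). miR-877-3p (-0.77) and miR-17-3p (-0.65) ran most against it. The likeness depends on the scale. The summed let-7 level had an r of -0.94 with the TMM factor, by which every value of a library is divided, and on plain shares of counts the r of let-7 with miR-122-5p was -0.25.

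Markers of liver cell types were measured in the same libraries. miR-122-5p was the most abundant miRNA throughout, as the liver label implies. The sums given next were mostly miR-122-5p for hepatocytes, miR-126-3p for endothelium, miR-143-3p for stellate cells and miR-486-5p for red cells. Single markers could differ from their sum: of the 4 hepatocyte markers, 2 had log2 fold changes below 0 and 2 above. Summed markers overlapped between genotypes for hepatocytes (4 of 4 tested; 488141 to 673925 normalised CPM with p53, 468813 to 811813 without), endothelium (2 of 2; 6012 to 11013 and 5772 to 10477), stellate cells (5 of 5; 4840 to 8815 and 5603 to 6627), red cells (4 of 4; 528 to 1399 and 591 to 1336) and leukocytes (5 of 5; 103 to 161 and 142 to 216). At an unadjusted p under 0.05 (17.3% of all tested) there was 1 marker each for hepatocytes (miR-194-5p, -0.52), red cells (miR-451a, -0.49) and leukocytes (miR-150-5p, 0.68, with 4 of 5 leukocyte markers above 0), and none for endothelium or stellate cells. Biliary and epithelial markers ran from 810 to 2745 with p53 and 661 to 2223 without (5 of 5 tested). All 5 log2 fold changes were below 0, where 51% of all tested were. At an unadjusted p under 0.05 there were 3: miR-141-3p (-1.83, from 2 to 26 counts), miR-429-3p (-1.20) and miR-200a-3p (-0.59). Over all tested miRNAs, 9.02% were lower at that p. miR-200b-3p, the most abundant of the 5, was at -0.21, and none of the 5 passed the adjusted p in edgeR. Pancreas markers (2 of 4 tested), among them miR-217-5p, which was at 0 in at least 1 library of each genotype, ran from 2.86 to 410 with p53 and from 6.75 to 27.5 without, with both tested markers below 0 at an unadjusted p under 0.05. Whether p53 acts on the marker miRNAs themselves was not tested, so their differences need not reflect cell make-up. The part of cell make-up in the let-7 values was not tested either.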

How the data were processed

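Deposited by the authors were a table of read counts, with an entry for each mature name and hairpin, and CPM scaled to the total of all entries. GRCm38 and limma are named in the submitters' processing notes. Aligner, counter, strand and adapter handling are not stated in the sources used here. Per-library files held the same counts as the table of the series (0 values differed). Names listed under several hairpins (76 of 1281) were counted once, with the highest count. Members and lists were chosen with earlier results of these data known; all 8 members are named, and up to 4 arms of each related list by mean level. Genotypes were compared in R 4.3.3 by the quasi-likelihood test of edgeR 4.0.16 (TMM, filterByExpr, Benjamini-Hochberg over 388 miRNAs, threshold 0.05), tested on simulated data. Alternatives were DESeq2 1.42.0, limma-voom 3.58.1, other scalings, filters and hairpin sums, and libraries left out. All libraries name lane 4, so lanes give no batch to separate. For the let-7 members, with counts of at least 5314, counting error was small beside the spread between libraries. For miR-98-5p, with counts of 204 to 782, it was a larger part of the spread and was not separated from it.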

Additional observations from a re-analysis of the deposited data

Results flagged for a closer look

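Of 34 groups of values examined for a sample far from the rest of its group (levels and family shares of the 8 arms, and their summed share), 2 held such a sample, and chance alone flags about 1 in 20. miR-98-5p in p53-/- library 11 was at 74.5 normalised CPM, where the other p53-/- libraries lay between 102 and 110.6. let-7a-5p in p53+/+ library 2 made up 17.4% of the family's counts, where the other p53+/+ libraries lay between 10.5% and 12.4%.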

How the results depend on the processing

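No paired analysis was possible because no replicate number occurs in both genotypes. Under the 21 alternatives run, the count of called members was 0 each time. Over all miRNAs the count was 1, except with DESeq2, which called 7. Of 168 values of members under alternatives, 159 kept their sign and 9 turned it, and none passed the threshold. let-7f-5p was at 0.011 without miR-122-5p in the table and at 0.0062 with only miRNAs of at least 10 CPM, let-7d-5p at 0.21 without p53+/+ libraries 1 and 2, and let-7a-5p at -0.14 with only p53-/- libraries whose HA numbers exceed 500; the cause was not tested. With each library left out in turn, let-7d-5p ran from -0.33 to 0.052 (without p53+/+ 2), let-7f-5p from -0.12 to 0.11 (p53-/- 11; 0.056 without p53+/+ 5), let-7g-5p from -0.14 to 0.041 (p53-/- 11) and let-7i-5p from -0.20 to 0.051 (p53+/+ 5). The difference in the summed share was -0.39 percentage points (p53-/- minus p53+/+), 1.28 with miR-122-5p removed from the totals, -0.24 with counts summed over hairpin entries and -0.21 without p53+/+ libraries 1 and 2. With each library left out in turn it ran from -0.52 to -0.22, the latter without p53+/+ library 2.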
